A study of Mus musculus with 9 samples.

Results

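Extracellular antagonists of Wnt signalling were followed through 3 populations of flow-sorted cells of mouse interlimb somites, taken at E9.5. The 9 genes were Dkk1, Dkk2, Dkk3, Sfrp1, Sfrp2, Frzb, Wif1, Notum and Apcdd1, out of 18193 genes read on Affymetrix mouse genome arrays. They were taken by name for what their products do, with earlier results of these arrays known. They were represented by 21 of the 45037 probe sets tested. The first population was the GFP+ cells of Pax3PAX3-FKHR/GFP embryos, hereafter PAX3-FKHR/GFP. In these embryos 1 Pax3 allele carried the coding sequence of GFP and the other a conditional PAX3-FKHR-IRESnlacZ insertion, made active by the ubiquitously expressed PGK-Cre transgene, so that no wild-type Pax3 allele remained. PAX3-FKHR joins the DNA-binding part of PAX3 to the activation domain of the forkhead factor FKHR, and was used by the study as a gain of Pax3 function. GFP+ cells of Pax3GFP/+ embryos, with 1 GFP and 1 wild-type Pax3 allele, are called GFP/+ here. The last population was GFP- cells of the same region, whose Pax3 genotype is not in the labels. By the labels all came from tissue dissected as the hypaxial part of the dermomyotome, pooled over embryos, with 3 arrays per population and 9 in all.

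Wnt proteins are lipid-modified ligands that bind Frizzled receptors together with the co-receptors Lrp5 and Lrp6, which stabilises beta-catenin and lets it act with TCF/LEF factors on target genes. The antagonists act outside the cell or at its surface. Dkk1 and Dkk2 act on the co-receptors, and Sfrp proteins and Wif1 on the Wnt ligands. Notum removes the lipid of the ligand, and Apcdd1 acts at the membrane. In the somite, Wnts from the neural tube and the surface ectoderm are known to maintain the dermomyotome and to promote myogenesis.

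The arrays were of even quality, with medians between 4.636 and 4.681 on the log2 scale and a correlation of at least 0.9962 between arrays of a group. Pax3 had a mean log2 value of 8.29 in PAX3-FKHR/GFP cells, 9.20 in GFP/+ cells and 4.50 in GFP- cells. Its signal thus stayed well above GFP- cells although PAX3-FKHR/GFP embryos have no wild-type allele, as it did in all 3 Pax3 probe sets, and which Pax3 or PAX3-FKHR transcripts these probe sets read was not tested. GFP- cells were a mixture, low in the markers of the labelled tissue. The mean log2 value of 7 primitive erythroid markers lay between 6.313 and 6.335 in PAX3-FKHR/GFP samples and between 6.087 and 6.131 in GFP/+ samples, against 9.97 to 10.07 in GFP- samples. A set of 10 surface ectoderm markers averaged 4.804 to 4.984 in PAX3-FKHR/GFP and 4.76 to 4.915 in GFP/+ samples, against 7.197 to 7.26 in GFP- samples, and the mean of 11 dermomyotome markers was 8.142 to 8.378 in PAX3-FKHR/GFP, 7.895 to 7.902 in GFP/+ and 5.275 to 5.29 in GFP- samples. Pax3, from whose GFP allele the cells were sorted, is among these 11 dermomyotome markers. In such bulk samples fewer cells of a type and less RNA per cell cannot be told apart.

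A gene was read from its brightest probe set, and called higher or lower at an adjusted p under 0.05 (limma, Benjamini-Hochberg over all 45037 probe sets) with an absolute log2 difference of at least 0.5, that is 1.41-fold. At a limit of 1.5-fold, which was added after the data were seen, Dkk1, Wif1 and Sfrp1 are not called with PAX3-FKHR, and 2 of the 9 genes are called higher and 1 lower. Of all 45037 probe sets, 324 are called higher and 144 lower at this limit. Values below are log2 expression values, given per array in the order of replicates 1 to 3, and differences are log2 differences ± SE. Levels of different genes are not comparable on this scale, since each probe set has its own brightness.

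With PAX3-FKHR, 4 of the 9 antagonists were called higher than in GFP/+ cells, namely Dkk1, Dkk2, Wif1 and Apcdd1, and 2 were called lower, Sfrp1 and Notum. Of all genes 1.31% were called higher and 0.715% lower in this comparison. Dkk3, Sfrp2 and Frzb were not called. By probe set, 6 of 21 were called higher and 2 lower, against 0.884% and 0.473% of all probe sets. In 7 of the 9 genes, all but Dkk3 and Frzb, the 3 PAX3-FKHR/GFP values did not overlap the 3 GFP/+ values, as was so for 14.6% of all genes. The median difference was 0.30 over the 9 genes and -0.0015 over all genes. Since the 9 genes were chosen with earlier results of these arrays known, these shares are a description.

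**Figure D1:**
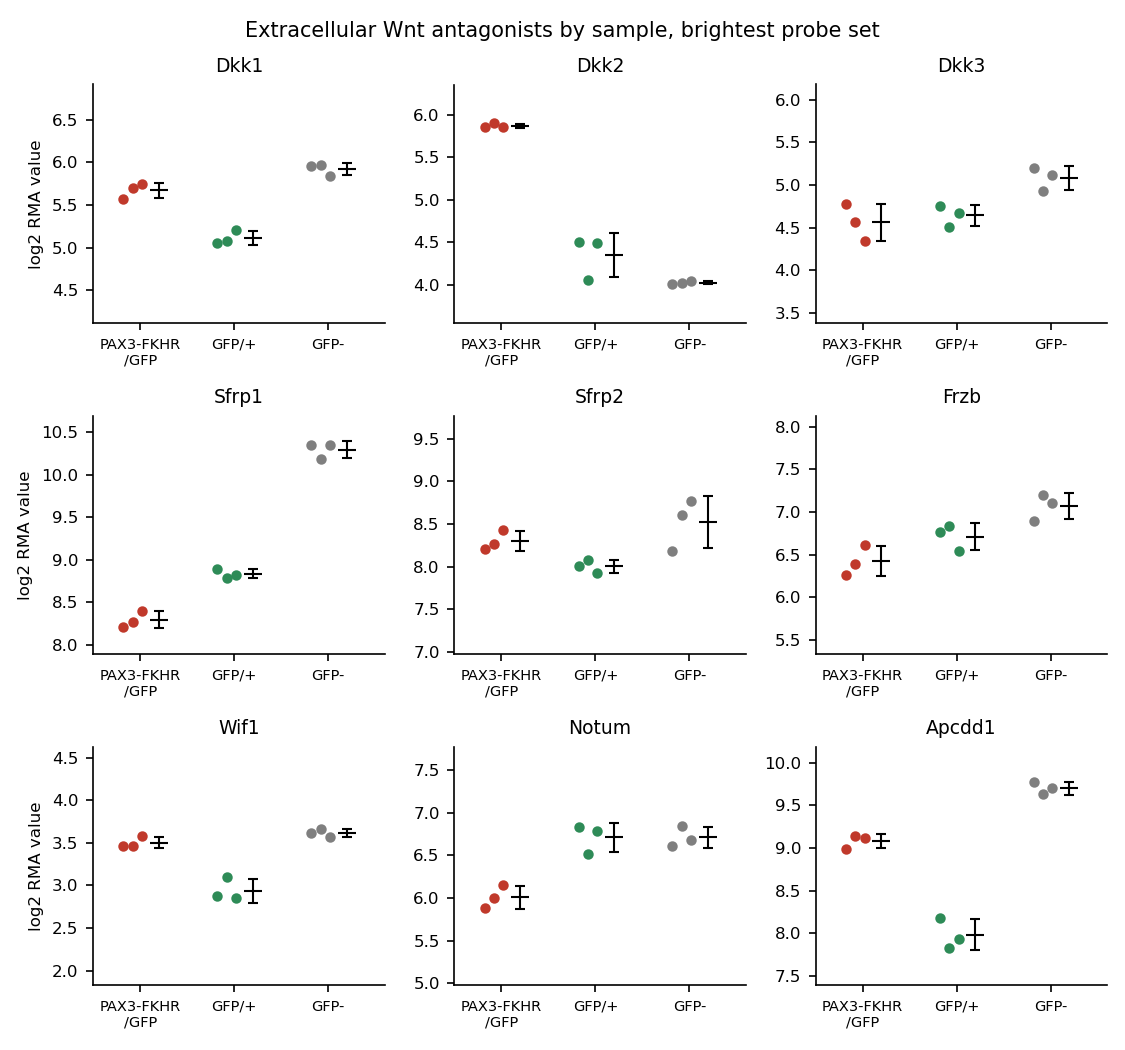
Log2 expression value (vertical axis) of the brightest probe set of each of the 9 genes in PAX3-FKHR/GFP, GFP/+ and GFP- samples. Coloured points are single arrays and the black mark with its bar is the mean ± SD of 3; every panel spans the same number of log2 units. Dkk2 is high only in the PAX3-FKHR/GFP samples (5.85 to 5.90), while Dkk1, Wif1 and Apcdd1 have their lowest values in GFP/+ samples.

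In the Dkk family, Dkk1 binds the co-receptors Lrp5 and Lrp6 and, with the Kremen receptors, takes them out of Wnt signalling. Dkk1 gave values of 5.57, 5.70 and 5.74 in PAX3-FKHR/GFP cells, 5.05, 5.08 and 5.20 in GFP/+ cells and 5.96, 5.97 and 5.84 in GFP- cells. GFP/+ cells thus held the lowest values and the 3 groups did not overlap. Dkk1 was 1.47-fold higher with PAX3-FKHR than in GFP/+ cells (0.56 ± 0.092, adjusted p = 0.0104). The call was lost without replicate 2 or 3 of PAX3-FKHR/GFP or replicate 1 or 2 of GFP/+, with adjusted p = 0.0585 to 0.0828 and 0.0527 to 0.0789 and with differences of 0.52 to 0.61 over all 6 such fits. The other Dkk1 probe set was dim in all samples, with group means of 2.91 in PAX3-FKHR/GFP, 2.80 in GFP/+ and 3.21 in GFP- cells, and was not called in any comparison. In GFP/+ cells it was lower than in GFP- cells by less than the limit (-0.41, adjusted p = 0.00822).

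Dkk2, whose product can block or activate the co-receptors depending on the context, had the largest difference among the 9 genes with PAX3-FKHR. It was read from a single probe set, with values of 5.85, 5.90 and 5.85 in PAX3-FKHR/GFP cells, 4.51, 4.06 and 4.49 in GFP/+ cells and 4.01, 4.02 and 4.05 in GFP- cells. The PAX3-FKHR/GFP arrays stood well above all 6 others, which lay below the array medians. The 2.85-fold rise over GFP/+ cells (1.51 ± 0.12, adjusted p = 9.4e-05) was called with each array left out in turn, at differences between 1.36 and 1.59. Whether Dkk2 transcripts were present in GFP/+ or GFP- cells was not tested, so its folds are those of the RMA values only. Dkk3, a divergent member of the family, had values of 4.78, 4.57 and 4.34 in PAX3-FKHR/GFP cells, 4.75, 4.51 and 4.67 in GFP/+ cells and 5.20, 4.93 and 5.12 in GFP- cells. The PAX3-FKHR/GFP and GFP/+ values overlapped, and the interval of their difference, -0.36 to 0.19, holds changes of less than the fold limit in either direction (adjusted p = 0.896).

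The promoters of Dkk1, Dkk2 and Wif1, which were all called higher with PAX3-FKHR, are shown with matches to short motifs marked. They are RefSeq sequences of build GRCm38.p6, from 250 bases before to 50 bases after the start of the gene, written 5′ to 3′ on the strand of the gene. Capitals mark matches on either strand to CTTTGA or CTTTGT (TCF/LEF cores), GTCAC (the core of a paired-domain site) or TATAAA. Dkk1 lies on the minus strand at chr19:30549447-30549746, Dkk2 on the plus strand at chr3:132085042-132085341 and Wif1 on the plus strand at chr10:121033754-121034053.
Dkk1: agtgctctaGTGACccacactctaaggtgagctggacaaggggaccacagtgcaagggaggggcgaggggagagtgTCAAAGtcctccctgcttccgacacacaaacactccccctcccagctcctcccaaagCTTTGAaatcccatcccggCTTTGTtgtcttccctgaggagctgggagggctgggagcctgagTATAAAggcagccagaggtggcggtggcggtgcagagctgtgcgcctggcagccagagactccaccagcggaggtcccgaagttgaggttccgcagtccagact
Dkk2: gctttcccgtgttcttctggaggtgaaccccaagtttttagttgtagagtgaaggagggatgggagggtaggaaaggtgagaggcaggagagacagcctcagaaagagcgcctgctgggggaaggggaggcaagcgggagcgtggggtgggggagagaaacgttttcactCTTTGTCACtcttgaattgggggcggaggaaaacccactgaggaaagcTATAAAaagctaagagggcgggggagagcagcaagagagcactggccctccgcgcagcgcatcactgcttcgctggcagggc
Wif1: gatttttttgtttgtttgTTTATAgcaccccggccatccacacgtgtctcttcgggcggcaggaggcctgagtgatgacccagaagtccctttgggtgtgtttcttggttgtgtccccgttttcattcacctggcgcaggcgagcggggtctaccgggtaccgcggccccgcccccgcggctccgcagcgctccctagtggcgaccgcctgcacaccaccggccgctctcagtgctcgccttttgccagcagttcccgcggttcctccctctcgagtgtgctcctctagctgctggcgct
The Dkk1 promoter held CTTTGA at -117 to -112 and, on the opposite strand, at -174 to -169, CTTTGT at -98 to -93, GTCAC on the opposite strand at -241 to -237 and TATAAA at -54 to -49, counted from the start. In Dkk2, CTTTGT at -80 to -75 overlapped GTCAC at -76 to -72, and TATAAA stood at -32 to -27. The Wif1 window held only TATAAA, on the opposite strand at -232 to -227. Promoter sequences matched 5 of the 9 genes; of the others, Frzb had CTTTGA on the opposite strand at -95 to -90 and Sfrp2 had GTCAC on the opposite strand at -111 to -107. These short motifs are common: among 32851 promoters of this length, 16% held CTTTGA, 18.7% CTTTGT, 45.6% GTCAC and 13.6% TATAAA. A match describes the letters only and no binding was measured.

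Sfrp1, Sfrp2 and Frzb carry a cysteine-rich domain like that of Frizzled receptors and bind Wnt ligands. Sfrp1 was graded over the populations, with values of 8.21, 8.27 and 8.40 in PAX3-FKHR/GFP cells, 8.89, 8.79 and 8.82 in GFP/+ cells and 10.35, 10.18 and 10.35 in GFP- cells. PAX3-FKHR/GFP cells were lowest, without overlap. Sfrp1 fell to 68.9% of its GFP/+ level with PAX3-FKHR (-0.54 ± 0.081, adjusted p = 0.00584). Its other 4 probe sets were at -0.37 to -0.012 and none was called (adjusted p = 0.127 to 0.987). The call of the brightest probe set was also lost without replicate 1 of PAX3-FKHR/GFP, where the difference came to -0.50 and just under the limit, without replicate 2 of that group (adjusted p = 0.0703) or without replicate 3 of GFP/+ (0.0533).

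Sfrp2 had values of 8.21, 8.26 and 8.43 in PAX3-FKHR/GFP cells, 8.01, 8.08 and 7.92 in GFP/+ cells and 8.18, 8.61 and 8.77 in GFP- cells. GFP/+ arrays were lowest, but the difference with PAX3-FKHR did not pass the test (0.30 ± 0.086, interval 0.11 to 0.49, adjusted p = 0.174). Frzb, also called Sfrp3, had values of 6.26, 6.39 and 6.61 in PAX3-FKHR/GFP cells, 6.77, 6.83 and 6.54 in GFP/+ cells and 6.90, 7.20 and 7.11 in GFP- cells. A PAX3-FKHR/GFP array exceeded the lowest GFP/+ array, and the difference of -0.29 ± 0.11 was not called (adjusted p = 0.388). Its dimmer second probe set differed by 0.14 ± 0.10 and was not called either (adjusted p = 0.73).

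Wif1, which binds Wnt ligands through its WIF domain, was dim in every sample, below the array medians. Its values were 3.46, 3.46 and 3.58 in PAX3-FKHR/GFP cells, 2.87, 3.10 and 2.85 in GFP/+ cells and 3.62, 3.66 and 3.57 in GFP- cells. As with Dkk1, GFP/+ cells were lowest. The 1.48-fold difference with PAX3-FKHR (0.56 ± 0.087, adjusted p = 0.00676) was called, but not without replicate 1 (adjusted p = 0.0506) or replicate 3 (0.0625) of GFP/+. Since no absence calls were used, whether Wif1 transcripts were present at this level was not tested.

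Notum is a carboxylesterase that removes the lipid from Wnt ligands. It had values of 5.88, 6.0 and 6.15 in PAX3-FKHR/GFP cells, 6.83, 6.52 and 6.79 in GFP/+ cells and 6.61, 6.84 and 6.68 in GFP- cells. The PAX3-FKHR/GFP arrays were below all 6 others, which overlapped each other. Notum fell to 61.3% of its GFP/+ level with PAX3-FKHR (-0.71 ± 0.11, adjusted p = 0.00652). The call was lost without replicate 2 of PAX3-FKHR/GFP (adjusted p = 0.0673) or replicate 3 of GFP/+ (0.0692), at differences between -0.80 and -0.64 over the 6 fits.

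Apcdd1, a membrane glycoprotein that binds Wnt ligands and Lrp5, had values of 8.99, 9.14 and 9.12 in PAX3-FKHR/GFP cells, 8.18, 7.83 and 7.93 in GFP/+ cells and 9.78, 9.63 and 9.70 in GFP- cells. PAX3-FKHR/GFP cells lay between the other populations and no values overlapped. Apcdd1 rose 2.15-fold over GFP/+ cells (1.10 ± 0.10, adjusted p = 0.00018) and was called with each array left out in turn. Of its other 5 probe sets, those with differences of 1.09 and 1.08 were called, whereas those with 0.44, 0.35 and 0.15 were not (adjusted p = 0.0723, 0.276 and 0.637). The brightest probe set has a name ending in _x_at, which marks probes that may also bind other transcripts, and 1 of the probe sets that were called with it is not of this kind.

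**Figure D2:**
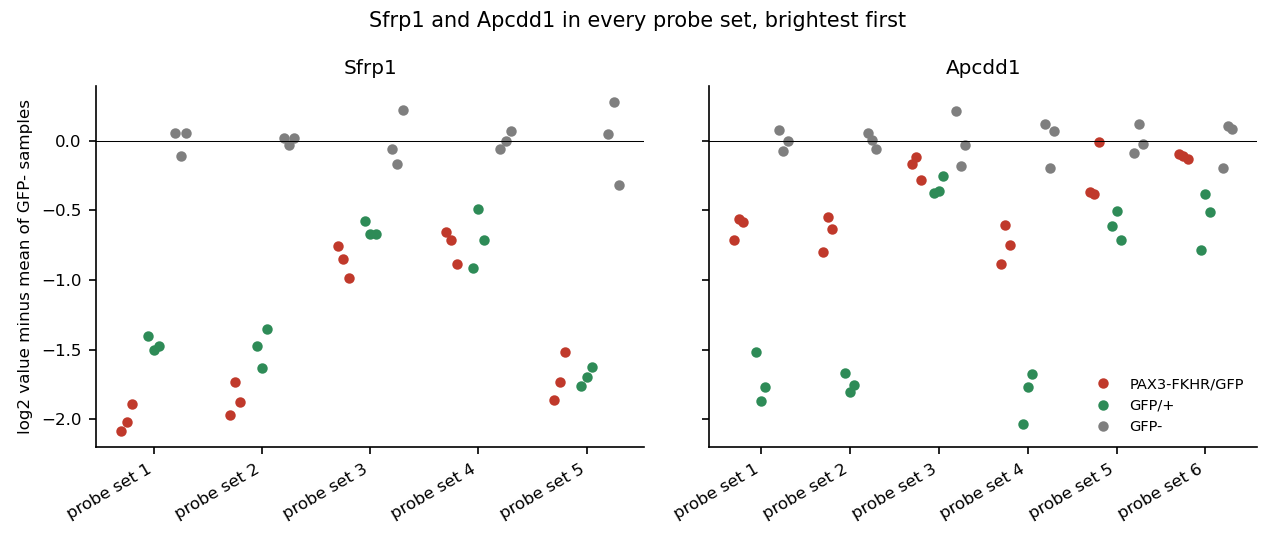
Log2 value of each array minus the mean of the GFP- samples (vertical axis), for the 5 Sfrp1 and the 6 Apcdd1 probe sets (horizontal axis, brightest first) in PAX3-FKHR/GFP, GFP/+ and GFP- samples; each point is an array. All 5 Sfrp1 probe sets lie below 0 in both GFP+ populations, and 3 of 6 Apcdd1 probe sets stood higher with PAX3-FKHR by the test against GFP/+ samples.

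Markers of other somite derivatives and of the neural crest differed in part with PAX3-FKHR. Of all genes 1.31% were called higher than in GFP/+ cells and 0.715% lower. The mean of 10 myotome markers was 6.963 to 7.086 in PAX3-FKHR/GFP samples, against 7.832 to 7.892 in GFP/+ samples, 7 of the 10 being called lower and 1, Myf5, higher (0.89, adjusted p = 0.000283). That of 9 sclerotome markers was 6.811 to 6.875 in PAX3-FKHR/GFP samples, against 7.062 to 7.118 in GFP/+ samples, with 4 called lower and 1, Uncx, higher (0.73, adjusted p = 0.00189). That of 9 neural crest markers was 8.275 to 8.497 in PAX3-FKHR/GFP samples, against 8.051 to 8.154 in GFP/+ samples, with 2 called higher, Tfap2b (0.59) and Tfap2c (0.61). The neural crest marker Sox10 averaged 9.62 in PAX3-FKHR/GFP cells and 9.48 in GFP/+ cells, and was not called (adjusted p = 0.656). Of 11 dermomyotome markers 4 were called higher and 2 lower. Among the latter is Pax3 (-0.91, adjusted p = 0.000215), whose wild-type allele is absent by genotype. Of 11 neural tube markers 1 was called higher and 2 lower. Of 7 primitive erythroid markers 1 was called higher, as was 1 of 11 intermediate and lateral mesoderm markers, and 0 were called lower. Of 10 endothelial and of 10 surface ectoderm markers limma called 0. At an unadjusted p under 0.05 limma had 1 endothelial marker higher and 1 lower, and 2 surface ectoderm markers higher. The local pooled error test called 1 endothelial marker higher and 0 surface ectoderm markers. The part of these markers in the differences of the antagonists was not tested.

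Between GFP/+ and GFP- cells, 5 of the 9 antagonists were called lower in GFP/+ cells, where 5.05% of all genes were, and 0 were called higher, where 1.92% of all genes were. The 5 were Dkk1, Sfrp1, Sfrp2, Wif1 and Apcdd1. In the limma fit 1 gene, Dkk2, was higher at an unadjusted p under 0.05, and the local pooled error test called 0 higher. By that test Dkk2 was higher in GFP/+ cells by less than the limit (0.47, adjusted p = 0.0141). The limma fit without replicate 2 of GFP/+ gave the same outcome (0.48, adjusted p = 0.011). By probe set 14 of 21 were called lower, against 3.24% of all probe sets, and 0 higher, against 1.42%. The groups did not overlap for 8 of the 9 genes, all but Notum, as for 28.2% of all genes. The median difference was -0.52 over the 9 genes and 0.0078 over all genes.

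Apcdd1 and Sfrp1 had the largest differences. Apcdd1 was at 30.4% of its GFP- level in GFP/+ cells (-1.72 ± 0.088, adjusted p = 8.38e-07), with 5 of its 6 probe sets called lower. Sfrp1 was at 36.4% (-1.46 ± 0.062, adjusted p = 2.19e-07), with all 5 of its probe sets called lower at differences between -1.69 and -0.64. In both genes the call thus held in more than 1 probe set. Dkk1 was lower in GFP/+ cells at 56.8% of its GFP- level (-0.81 ± 0.080, adjusted p = 0.000102) and Wif1 at 62.5% (-0.68 ± 0.082, adjusted p = 0.000454).

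Sfrp2 was called lower in GFP/+ cells (-0.52 ± 0.13, adjusted p = 0.0332), but its GFP- values were spread between 8.18 and 8.77. Its call was kept only without replicate 1 of GFP-, the lowest GFP- array, where the difference was -0.69 (adjusted p = 0.00147). Without any other array of either group it was lost, with adjusted p = 0.092 to 0.178. Dkk3 was lower by less than the limit (-0.43 ± 0.10, adjusted p = 0.0243), although its second probe set was called (-0.52 ± 0.093, adjusted p = 0.00616). Frzb did not pass the test (-0.36 ± 0.10, adjusted p = 0.0591). Notum differed by 0.0019 ± 0.099 (interval -0.22 to 0.22, adjusted p = 0.995), and Dkk2 by 0.33 ± 0.12 (interval 0.06 to 0.60, adjusted p = 0.153).

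Markers of other tissues were high in GFP- cells: all 7 erythroid, 7 of 10 ectoderm, 7 of 10 endothelial, 8 of 11 intermediate and lateral mesoderm and 6 of 11 neural tube markers were called lower in GFP/+ cells. Endothelial markers averaged 5.165 to 5.262 in GFP/+ samples, against 5.971 to 6.103 in GFP- samples. Those of intermediate and lateral mesoderm averaged 4.848 to 4.862 in GFP/+ samples, against 6.57 to 6.649 in GFP- samples, and those of the neural tube 6.762 to 6.775 in GFP/+ samples, against 7.482 to 7.56 in GFP- samples. Other lists went the other way. In GFP/+ cells 10 of 11 dermomyotome markers, Pax3 among them, 8 of 10 myotome and 7 of 9 sclerotome markers were called higher. Of 9 neural crest markers 6 were called higher and 1 lower. GFP/+ cells thus also held markers of several tissues. Which cells of either population held the antagonist transcripts was not tested.

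**Figure D3:**
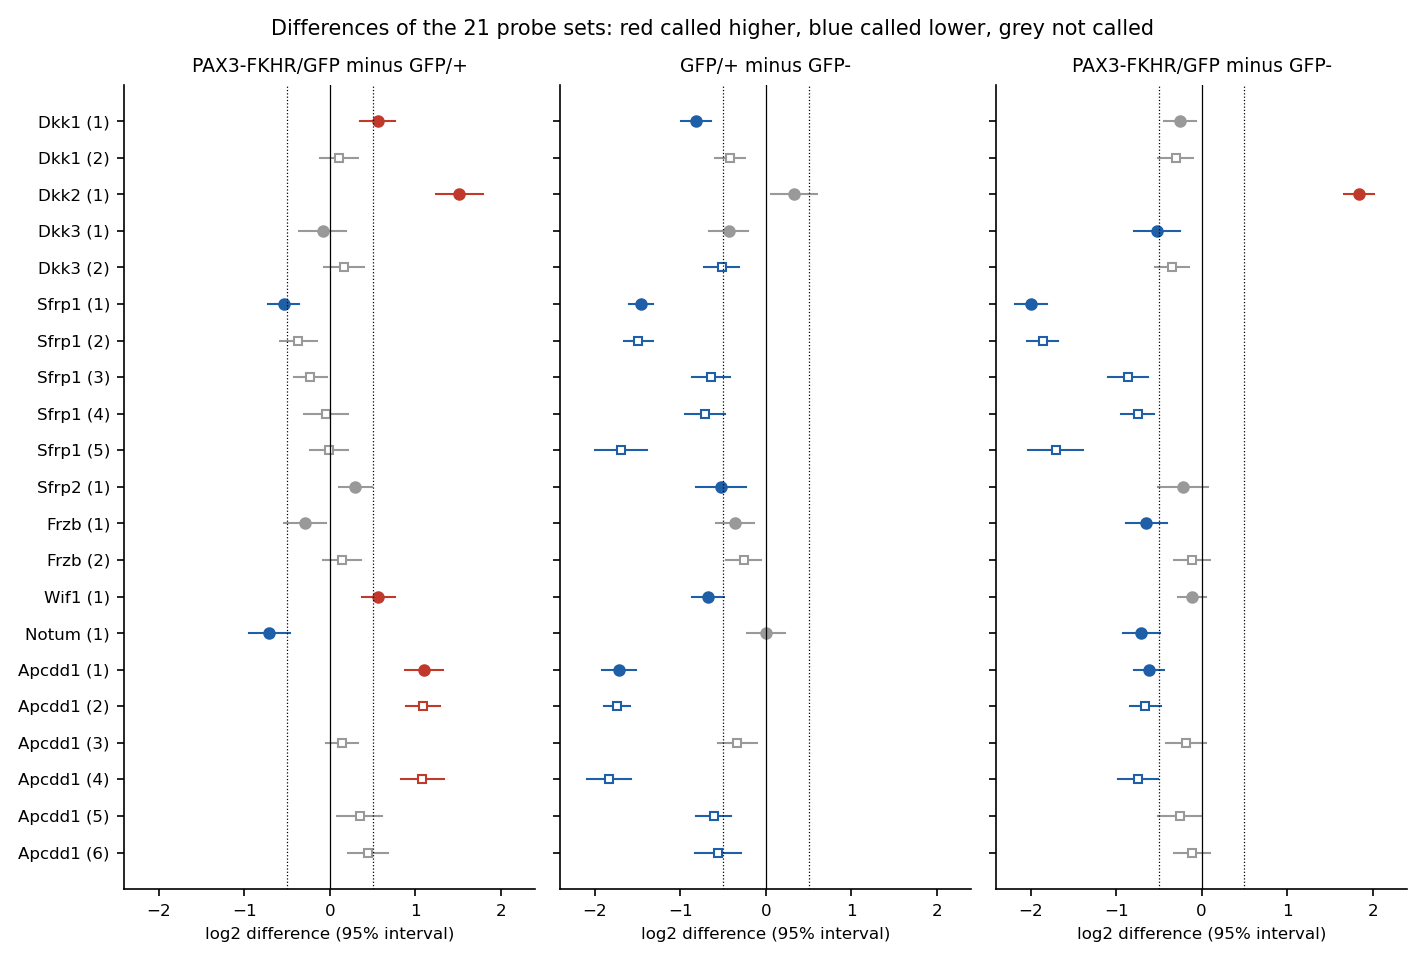
Log2 difference (horizontal axis, with 95% interval) of the 21 probe sets in each of the 3 comparisons; filled circles are the brightest probe set of a gene, open squares the others, and dotted lines mark the limit of 0.5. Red was called higher, blue called lower and grey not called: Dkk2 lies at 1.51 with PAX3-FKHR over GFP/+ cells and at 0.33 in GFP/+ over GFP- cells, and Apcdd1 at 1.10 and -1.72.

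The third comparison, of PAX3-FKHR/GFP with GFP- cells, differs in genotype and in GFP fluorescence and shares samples with both others, so it is given for the order of the levels. Here 1 of the 9 genes was called higher, Dkk2, where 2.63% of all genes were, and 5 were called lower, where 5.2% were. By probe set 1 of 21 was higher and 11 lower, against 1.99% and 3.36% of all probe sets. The values did not overlap for 7 genes, all but Sfrp2 and Wif1, as for 25.5% of all genes, and the median difference was -0.52 over the 9 genes and 0.0072 over all genes. Dkk2 was 3.58-fold higher in PAX3-FKHR/GFP cells (1.84 ± 0.081, adjusted p = 4.43e-08).

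The genes called lower than in GFP- cells were Sfrp1, at 25.1% of the GFP- level (-2.0 ± 0.083, adjusted p = 3.2e-08), Notum at 61.4% (-0.70 ± 0.096, adjusted p = 0.00053), Frzb at 63.8% (-0.65 ± 0.11, adjusted p = 0.00231), Apcdd1 at 65.3% (-0.61 ± 0.079, adjusted p = 0.000335) and Dkk3 at 69.8% (-0.52 ± 0.12, adjusted p = 0.0203). The call of Dkk3 was lost without replicate 2 or 3 of PAX3-FKHR/GFP or replicate 1 or 3 of GFP-, with adjusted p = 0.0801 to 0.117. With the mean over probe sets, Apcdd1 (-0.43), Frzb (-0.38) and Dkk3 (-0.43) fall under the limit and lose their calls, and the second Frzb probe set alone differed by -0.11 (adjusted p = 0.608). The difference was not called for Dkk1 (-0.26 ± 0.086, interval -0.44 to -0.07, adjusted p = 0.11), Sfrp2 (-0.22 ± 0.13, interval -0.52 to 0.07) or Wif1 (-0.11 ± 0.077, interval -0.28 to 0.06).

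The levels of the 6 genes called with PAX3-FKHR fell into several orders. Dkk2 was high with PAX3-FKHR, and its GFP/+ and GFP- levels did not differ beyond the limma test on all arrays. By the local pooled error test Dkk2 was higher in GFP/+ than in GFP- cells by less than the limit (0.47, adjusted p = 0.0141). Notum was low with PAX3-FKHR, and its other levels did not differ beyond the test. Sfrp1 was lowest with PAX3-FKHR, intermediate in GFP/+ cells and highest in GFP- cells, each step being called in its brightest probe set. The step between PAX3-FKHR/GFP and GFP/+ cells was not called in any other Sfrp1 probe set or in their mean. Dkk1, Wif1 and Apcdd1 were lowest in GFP/+ cells and higher in both other populations, of which GFP- cells were called above PAX3-FKHR/GFP cells only for Apcdd1, in its brightest probe set but not in the mean over its probe sets. Over the 9 arrays, Pearson's r was 0.972 between Dkk1 and Apcdd1, 0.946 between Dkk1 and Wif1 and 0.923 between Wif1 and Apcdd1, and -0.886 between Dkk2 and Notum. These describe points that fall into 3 groups, so that r mostly compares group means.

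Genes with the most alike pattern were sought over the same 9 arrays. For Dkk2 they were Hopx (r = 0.992), Met (0.989) and Egr2 (0.987), of which Met encodes the receptor of hepatocyte growth factor. For Sfrp1 they were Emilin2, Cyp1b1 and Anxa2, and for Notum Lama1 (0.983), Pax6 and Creb3l2. For Dkk1 they were Gdnf (0.981), Camk2n1 and Capn6. For Apcdd1 they were Npnt (0.991), Ackr3 and Irx2, and for Wif1 Camk2n1 (0.987), Onecut2 and Astn1. Camk2n1 stood near both Dkk1 and Wif1, with group means of 6.37 in PAX3-FKHR/GFP, 5.57 in GFP/+ and 6.59 in GFP- cells.

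The rest of the pathway was read from fixed lists. Of all genes 1.31% were called higher and 0.715% lower with PAX3-FKHR over GFP/+ cells. With PAX3-FKHR, 1 of 13 other extracellular antagonists was called lower, Shisa3 (-0.89 ± 0.12, adjusted p = 0.00217), of a family whose Xenopus member retains Frizzled receptors inside the cell, and 0 were called higher. Of 21 genes for Wnt ligands and their secretion 1 was called higher, the ligand Wnt16 (2.43 ± 0.10, adjusted p = 1.92e-06). Of 14 target and feedback genes 2 were called higher, Sp5 (1.35 ± 0.12) and the intracellular Wnt antagonist Nkd2 (0.79 ± 0.078). Of 27 receptor, co-receptor and R-spondin genes and of 12 proteoglycan and sulfatase genes 0 were called. Some genes passed the adjusted p but differed by less than the limit. They were Sostdc1 (0.44, adjusted p = 0.0372), Wnt5a (0.42, 0.0166), Wnt6 (-0.40, 0.0344) and Lgr6 (0.40, 0.0496). At an unadjusted p under 0.05 limma had 2 of the 13 antagonists higher, 2 of the 27 receptor genes higher and 0 lower, and 2 of the 12 proteoglycan genes higher and 1 lower, while the local pooled error test called 0 in each of these. List medians were 0.09 for the antagonists, 0.03 for the ligands, 0.13 for the targets, 0.02 for the proteoglycans and -5e-04 for the receptors. The median over all genes was -0.0015.

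Among the partners of the antagonists, Lrp5 differed by -0.0005 and Lrp6 by 0.08 with PAX3-FKHR, and Kremen1 by 0.18 (adjusted p = 0.681). Lrp5 was dim, with a mean of 3.27 in PAX3-FKHR/GFP cells and 3.27 in GFP/+ cells, below the array medians. This limits what its differences can show. The feedback gene Axin2 differed by 0.06 (adjusted p = 0.908) and Lef1 by 0.10 (adjusted p = 0.771). None of these was called, which does not show that their levels were equal.

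In GFP/+ over GFP- cells, 2 of the 13 other antagonists were called higher and 2 lower, led by Sostdc1 (-1.66), Shisa2 (1.30) and Trabd2b (-0.70). Of the ligand genes 1 was called higher and 6 lower, led by Wnt2 (-3.29), Wnt16 (1.94) and Wnt4 (-1.62). Of the receptor and R-spondin genes 1 was called higher and 5 lower, led by Rspo2 (-3.17), Rspo1 (-2.36) and Fzd5 (-1.63), the R-spondins being secreted enhancers of Wnt signalling. Of the targets 3 were called higher and 3 lower, led by Bambi (-1.76), Sp8 (-1.60) and Nkd2 (1.36), and of the proteoglycans 3 were called lower, Sdc4 (-1.23), Gpc4 (-0.65) and Sulf1 (-0.57). List medians were -0.10 for the antagonists, -0.09 for the ligands, -0.11 for the receptors, -0.01 for the targets and -0.17 for the proteoglycans. Over all genes the median was 0.0078, with 1.92% called higher and 5.05% lower in GFP/+ cells. Lrp5 differed by -0.0077, Lrp6 by -0.11, Axin2 by -0.06 and Lef1 by -0.09, none of them called, and Kremen1 was lower by less than the limit (-0.37, adjusted p = 0.0271). Both comparisons use the GFP/+ samples, so their lists are given side by side only.

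**Figure D4:**
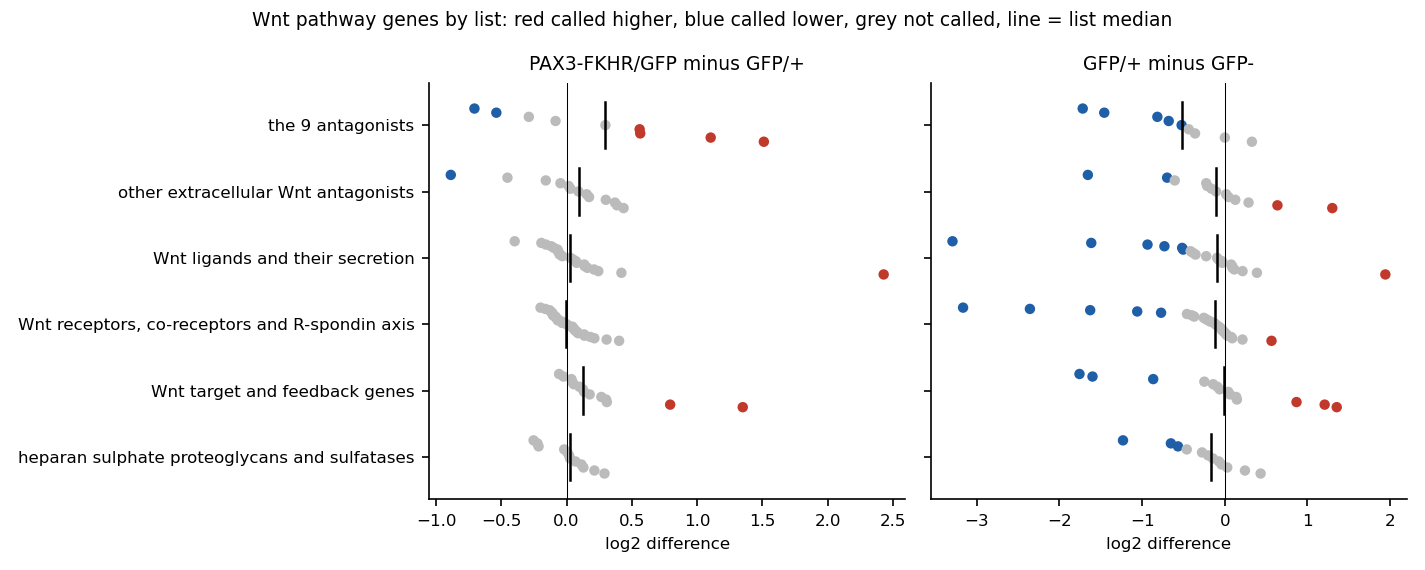
Log2 difference (horizontal axis) of each gene of the 9 antagonists and of 5 pathway lists, with PAX3-FKHR over GFP/+ cells and in GFP/+ over GFP- cells. Each point is a gene, red where called higher, blue where called lower and grey otherwise, and the line is the median: with PAX3-FKHR the antagonists spread between -0.71 and 1.51, with a median of 0.30.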

How the data were processed

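RNA from 9 pools of sorted cells went through two-cycle 3′ amplification and was hybridized to 1-colour arrays, as 3 biological replicates per population according to the study's methods. The authors deposited log2 expression values made with RMA, which corrects background, quantile normalizes arrays and summarises each probe set; its version is not given in the sources used here, nor which arrays it was run on jointly. A shift of most transcripts in 1 group would be lost in such values. The number of arrays limits the precision. The study's filter on absent probe sets was not applied. A protocol label speaks of forelimb buds where titles, source and tissue give interlimb somites, and the samples were taken as somites. By the study's methods the GFP- cells came from GFP/+ embryos, although wild-type embryos are named among the groups hybridized.

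Of 45101 probe sets 64 controls were left out and 45037 tested; by GEO's platform annotation 34945 had 1 gene symbol, 932 several and 9160 none here. A gene was read from its single-symbol probe set with the highest mean over the 9 arrays. Each comparison was fitted on its 6 samples with limma 3.58.1 in R 4.3.3 (lmFit, eBayes with an intensity trend), with two-sided p-values adjusted over all probe sets by Benjamini-Hochberg and 95% intervals from the fit; the adjusted p and log2 limits are those of the study, whose methods write 1.5-fold beside the log2 limit of 0.5, and 1.5-fold was therefore added as an alternative after seeing the data. The fits were tested on simulated data. Alternatives were all samples in 1 fit, no intensity trend, the local pooled error test of the study, the replicate number as a block, a mean log2 value of at least 5, no fold limit, the mean over probe sets, a second quantile normalization, and leaving out each array. Named were all 9 antagonists and, per pathway list, the 3 called genes with the largest difference in the comparisons with GFP/+ cells. Lrp5, Lrp6, Kremen1, Axin2 and Lef1 were named in any case, as were the 3 genes most correlated with each antagonist called with PAX3-FKHR. Sox10, Myf5, Uncx, Tfap2b, Tfap2c and, with PAX3-FKHR, Sostdc1, Wnt5a, Wnt6 and Lgr6 were picked after their values were seen. Of 186 list symbols 175 were measured. The antagonists and lists were chosen with earlier results of these data known.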

Additional observations from a re-analysis of the deposited data

How the results depend on the processing

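With only probe sets of a mean log2 value of at least 5, 6 of the 9 antagonists were tested, without Dkk2, Dkk3 and Wif1, and 2 were called higher with PAX3-FKHR over GFP/+ cells and 0 higher over GFP- cells. Of all 20409 probe sets then tested, 338 were called higher with PAX3-FKHR over GFP/+ cells and 718 over GFP- cells. With the mean over probe sets, 1 antagonist was called lower with PAX3-FKHR over GFP/+ cells and 2 were lower over GFP- cells, where Apcdd1 (-0.43), Frzb (-0.38) and Dkk3 (-0.43) lost their calls; Dkk1 (0.33) and Sfrp1 (-0.24) then lost their calls against GFP/+ cells, at adjusted p = 0.0715 and 0.0711. With the added fold limit of 1.5, 2 were called higher and 1 lower with PAX3-FKHR over GFP/+ cells, and Sfrp2 in GFP/+ over GFP- cells and Dkk3 with PAX3-FKHR over GFP- cells lost their calls. At this limit 324 of all 45037 probe sets were called higher and 144 lower with PAX3-FKHR over GFP/+ cells. Leaving out each array gave 2 to 4 higher and 0 to 2 lower calls with PAX3-FKHR over GFP/+ cells, 0 higher and 4 to 5 lower in GFP/+ over GFP- cells, and 1 higher and 4 to 5 lower with PAX3-FKHR over GFP- cells. Of all 45037 probe sets these fits called 238 to 421 higher and 120 to 188 lower with PAX3-FKHR over GFP/+ cells. In GFP/+ over GFP- cells they called 586 to 631 higher and 1354 to 1429 lower. With PAX3-FKHR over GFP- cells they called 821 to 1034 higher and 1421 to 1531 lower. Signs turned only for differences that were never called: Dkk3 with PAX3-FKHR over GFP/+ cells, at 0.041 with the mean over probe sets and 0.028 without replicate 3 of PAX3-FKHR/GFP (-0.19 to 0.028 over the 6 fits that each left out an array), and Notum in GFP/+ over GFP- cells, at -0.055 and -0.038 without GFP/+ replicate 1 or 3 and -0.048 and -0.015 without GFP- replicate 1 or 3 (-0.055 to 0.10 over the 6 fits). Without the intensity trend Sfrp2 was no longer called lower in GFP/+ cells (adjusted p = 0.0505). Of 234 differences under settings that kept all arrays, 220 kept direction and call.

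No clear pairing by replicate number was seen, with correlations of -0.0957 to 0.105 between same-numbered deviations. In 4 of 9 such checks, of a sample in a comparison, the sample was nearest to its own number. Between GFP/+ and GFP- cells the correlations were 0.0936, 0.0624 and 0.00946 for replicates 1 to 3. The study's methods do not say whether these fractions shared embryo pools, and 3 arrays per population cannot exclude a pairing. With the replicate number as a block, 4 antagonists were called higher and 2 lower with PAX3-FKHR over GFP/+ cells, 0 of 27 calls changed, and over all probe sets 403 were called higher and 200 lower, against 398 and 213 without it. Without a fold limit, counts over all probe sets were 491 higher and 310 lower with PAX3-FKHR over GFP/+ cells, 1452 higher and 2495 lower against 638 and 1457 in GFP/+ over GFP- cells, and 1648 and 2381 against 897 and 1514 with PAX3-FKHR over GFP- cells. With 1 row per gene by the mean over probe sets they were 205 and 98 with PAX3-FKHR over GFP/+ cells, 263 and 717 in GFP/+ over GFP- cells and 390 and 760 with PAX3-FKHR over GFP- cells. With the limit on dim probe sets 936 and 955 were called lower in the comparisons of GFP/+ and of PAX3-FKHR/GFP with GFP- cells. Without replicate 2 of PAX3-FKHR/GFP 238 were called higher and 120 lower over GFP/+ cells, and without GFP/+ replicate 2 or 3, 258 and 125 or 262 and 124. Wif1, Dkk2 and Dkk3 were dim in most samples, which limits what their values can show.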
